A study of Mus musculus with 12 samples.

Results

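The BAF complex is the mammalian SWI/SNF chromatin remodeler, a large assembly that uses ATP to slide or evict nucleosomes and so opens DNA at promoters and enhancers. Its motor is either BRG1, encoded by Smarca4, or BRM, encoded by Smarca2. A core of SMARCC1, SMARCC2, SMARCB1, SMARCE1 and ACTL6A surrounds the motor, and a large ARID subunit sets the subtype, with ARID1A or ARID1B in canonical BAF and ARID2 in PBAF. IKAROS, a zinc finger transcription factor of blood cells, has been described to associate with BAF and with the NuRD remodeler, and BRG1 is known to be needed for globin expression in mouse erythroid cells.

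The genes described here are 10 of the 38250 genes of the table, taken by symbol: Smarca2, Smarca4, Arid1a, Arid1b, Arid2, Smarcb1, Smarcc1, Smarcc2, Smarce1 and Actl6a. All 10 passed the filter of a mean of at least 5 normalized counts, which 13769 genes passed. A second list of 19 genes for other BAF, PBAF and ncBAF subunits was described beside them, of which 17 passed the filter.

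RNA-seq had been performed on Ter119+ erythroid cells from fetal livers of CD1 mouse embryos (e14.5), after 48 h of co-culture with erythropoietin on stroma. Embryos were IkWT (wild type for Ikzf1) or IkNull (homozygous for a deletion of the last translated exon of Ikzf1, with no IKAROS protein in any tissue), and wild type littermates served as the control. The stroma was OP9, a mouse bone marrow line, or OP9-DL1, the same line engineered to express the NOTCH ligand Delta-like 1, so that all 4 groups shared the co-culture. Each of IkWT/OP9, IkWT/OP9-DL1, IkNull/OP9 and IkNull/OP9-DL1 had 3 libraries, numbered 1, 3 and 4 for IkWT and 1, 2 and 3 for IkNull. The values are read counts per gene divided by a size factor per library, called normalized counts below.

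Counts over the whole of Ikzf1 do not check the genotype, because the allele lacks a single exon. They ranged from 2424 to 2721 in the IkWT libraries and from 1721 to 2719 in the IkNull libraries. Recovered read totals could be settled for 10 libraries and were 19889576 to 31624477. The replicate 1 culture of each genotype was set against the other cultures of that genotype. In IkWT, 5 of the 10 genes were higher in both replicate 1 libraries than in the other 4, against 33.8% of all genes tested. In IkNull the count was 5 of 10, against 27.6%, and Smarca2 alone was lower there in both, against 25%. The other cultures were not counted in this way, so these shares do not show that replicate 1 stood apart.

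Ter119 marks erythroid cells, and the summed level of 9 erythroid genes overlapped between genotypes, at 695890 to 1284042 normalized counts in IkWT and 757886 to 1153682 in IkNull libraries. Sums for markers of several other cell types were higher in IkNull. The sum of 10 megakaryocyte genes was 907 to 1798 in IkWT and 3351 to 9707 in IkNull, that of 8 endothelial genes 185 to 416 and 1514 to 2331, that of 11 macrophage genes 1014 to 2641 and 3251 to 11108, and that of 9 stromal genes 1280 to 1703 and 2184 to 3878, none of which overlapped. Sums for 10 mast cell genes (106 to 861 and 855 to 1998) and 9 lymphoid genes (323 to 469 and 462 to 1272, with Cd3e and Ptcra at 0 throughout) overlapped over all libraries but not within a stroma. Those for 9 neutrophil genes, at 6402 to 50630 and 23002 to 87823, and for 9 hepatocyte genes, at 3379 to 9806 and 3391 to 9159, overlapped on each stroma. Gene by gene, 6 megakaryocyte, 5 endothelial, 3 mast cell and 2 macrophage genes were called higher on OP9 and 7, 5, 3 and 4 on OP9-DL1, where 2 stromal, 1 hepatocyte and 1 lymphoid gene were called higher too. A macrophage gene was called lower on both stromas and a lymphoid gene on OP9-DL1, and no erythroid or neutrophil gene was called. The genes tested were 10 megakaryocyte, 7 endothelial, 8 mast cell, 10 macrophage, 8 stromal, 9 hepatocyte and 4 lymphoid. Among all genes tested, the genotype comparison with OP9 stroma called 6.69% higher and 2.83% lower. With OP9-DL1 stroma these shares were 9.41% and 4.65%. The part of the sums that were higher in the genotype differences given below was not tested. In bulk RNA, fewer cells of a type and less RNA per cell cannot be told apart.

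Promoter sequences are shown for 3 genes whose difference on OP9-DL1 had an adjusted p under 0.05 and for Actl6b, a gene outside the 10 that differed most and was picked after its values were seen. They are 300 bases of the RefSeq annotation on GRCm38.p6, from 250 bases before to 50 after the start site. Capitals mark GGGAA, the core of the motif bound by IKAROS, or TTCCC where it lies on the other strand.
Actl6a: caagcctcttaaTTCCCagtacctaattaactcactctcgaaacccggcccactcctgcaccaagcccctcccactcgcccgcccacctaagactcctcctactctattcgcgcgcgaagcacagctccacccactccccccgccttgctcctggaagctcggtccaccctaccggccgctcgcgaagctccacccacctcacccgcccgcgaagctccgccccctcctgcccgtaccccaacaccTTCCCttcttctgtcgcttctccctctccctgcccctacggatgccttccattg
Smarcc1: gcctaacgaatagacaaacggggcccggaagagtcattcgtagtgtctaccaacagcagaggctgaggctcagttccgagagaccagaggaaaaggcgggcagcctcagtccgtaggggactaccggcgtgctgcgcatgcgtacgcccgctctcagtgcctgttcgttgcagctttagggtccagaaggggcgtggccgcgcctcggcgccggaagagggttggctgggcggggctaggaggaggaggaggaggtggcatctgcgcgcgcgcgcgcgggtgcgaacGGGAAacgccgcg
Smarcc2: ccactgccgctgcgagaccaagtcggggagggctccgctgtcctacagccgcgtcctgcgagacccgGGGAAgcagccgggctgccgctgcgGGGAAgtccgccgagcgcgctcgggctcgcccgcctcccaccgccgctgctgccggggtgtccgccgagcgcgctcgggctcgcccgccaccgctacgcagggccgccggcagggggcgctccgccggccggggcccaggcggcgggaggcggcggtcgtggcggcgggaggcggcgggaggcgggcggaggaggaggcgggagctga
Actl6b: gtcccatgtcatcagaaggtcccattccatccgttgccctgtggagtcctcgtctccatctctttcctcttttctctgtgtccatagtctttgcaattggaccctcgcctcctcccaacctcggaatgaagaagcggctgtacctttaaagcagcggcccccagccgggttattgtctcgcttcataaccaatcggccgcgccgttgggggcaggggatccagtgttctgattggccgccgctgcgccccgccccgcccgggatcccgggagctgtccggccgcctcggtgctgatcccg
They lie at chr3:32708296-32708595 (Actl6a), chr9:110131774-110132073 (Smarcc1), chr10:128458986-128459285 (Smarcc2) and chr5:137553296-137553595 (Actl6b), all on the plus strand. Promoters were matched for 8 of the 10 genes, and Arid2 and Smarce1 had no entry. GGGAA, searched on both strands, was present in 6 of these 8 (Actl6a, Arid1a, Smarca2, Smarcb1, Smarcc1 and Smarcc2) and in 62.7% of 32851 promoters of the same length. TGGGAA, which holds GGGAA and is the core bound by the NOTCH partner RBPJ, was present in Actl6a alone among the 8 and in 25.6% of all promoters. The GATA factor motif AGATAA was in none of the 8 and in 11.2% of all. A match is a run of letters and says nothing of binding.

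Per kilobase of exon, Smarce1, Smarca4 and Smarcc2 were the highest of the 10 in IkWT/OP9 cells and Smarca2 was the lowest. The means were 331 ± 116 normalized counts per kb for Smarce1, 326 ± 25.3 for Smarca4 and 302 ± 20.1 for Smarcc2 (SD, n = 3), and the libraries of neighbours in this order overlapped. Actl6a followed at 264 ± 19.7, and its libraries lay below all of Smarcc2. The next level was that of Arid2 (173 ± 32.6), Arid1a (156 ± 22.4) and Smarcc1 (138 ± 10.4), again with overlapping neighbours. Smarcb1 stood at 67.7 ± 4.1 and Arid1b at 64.4 ± 9.8, which overlapped. Smarca2, the alternative motor, was at 4.56 ± 1.86, below all other members in every library.

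The order was different in IkNull/OP9 cells, where Smarca4 was first at 247 ± 34.5 normalized counts per kb and Smarce1 had rank 4 at 156 ± 48.6. Here the libraries of each neighbouring pair from Smarca4 down through Smarcc2, Actl6a, Smarce1 and Arid1a overlapped. Exon length was the union of all annotated exons, which is 7.93 kb for Smarcb1 against 1.66 kb for its longest coding transcript. With the longest coding transcript as length, chosen after seeing the data, Smarce1 was first in all 4 groups and Smarcb1 moved from rank 8 to a rank between 3 and 5. Smarca2 was last and Arid1b next to last in all 4 groups with either length.

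**Figure D1:**
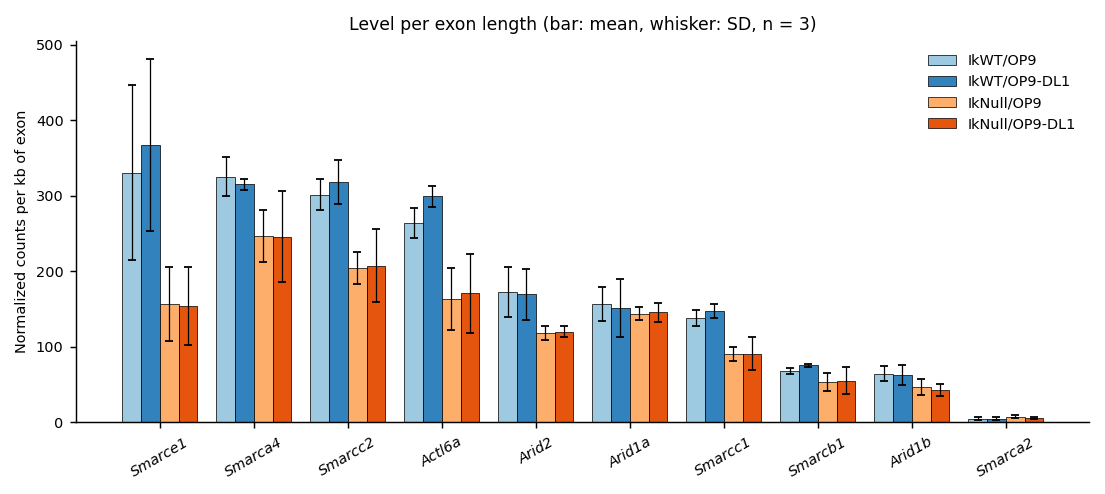
Normalized counts per kb of exon (y axis, from 0) for the 10 genes (x axis), with bars for the mean of 3 libraries and whiskers for the SD in each of 4 groups. Smarca2 bars lie near the axis in all groups, and the Smarce1 bars are 331 in IkWT/OP9 and 156 in IkNull/OP9.

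The comparison of IkNull/OP9-DL1 with IkWT/OP9-DL1 asked which genes depend on IKAROS while NOTCH is stimulated. Smarce1 and Actl6a were lower in IkNull by the thresholds of the study (a change of 0.8 or more on the log2 scale in either direction, together with an adjusted p below 0.05), and no member was higher. Of all genes tested, 4.65% were called lower and 14.1% in either direction. Smarcc1 and Smarcc2 were also lower with an adjusted p under 0.05 and a smaller change, which made 4 of 10, against 7.25% of all genes lower and 9.96% higher at that adjusted p. At an unadjusted p under 0.05 there were 6 members, against 34.5% of all genes in either direction. The median log2 fold change of the 10 was -0.52, and that of all genes was 0.03. This fit takes its spread from all 12 libraries and leaves out the culture, which libraries of the same genotype and replicate number share. With the culture as a random block Smarce1 and Actl6a were called, and over culture means, given below, neither was.

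Smarce1 encodes BAF57, an HMG-box subunit of the core (chromosome 11, 99209047 to 99231017, minus strand). IkWT/OP9-DL1 libraries had 3309, 1896 and 2124 normalized counts (replicates 1, 3 and 4), and IkNull/OP9-DL1 libraries had 1395, 722 and 950 (replicates 1, 2 and 3). Every IkNull library was below every IkWT library, and replicate 1 was the highest in both genotypes. The log2 fold change was -1.27 ± 0.33 (SE; adjusted p = 0.0250, limma), and the level decreased by 58.4%.

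Actl6a encodes BAF53a, the actin-related subunit of proliferating cells (chromosome 3, 32706298 to 32726973, plus strand). It had 1106, 1218 and 1166 normalized counts in IkWT/OP9-DL1 and 838, 439 and 713 in IkNull/OP9-DL1. The groups did not overlap, and replicate 2 was the lowest. The log2 fold change was -0.86 ± 0.24 (adjusted p = 0.0318, limma). An exonic stretch of 452 bases, 11.6% of the exon length of Actl6a, overlaps Mrpl47 on the opposite strand, and reads there cannot be told apart without strand.

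Smarcc1 and Smarcc2 encode BAF155 and BAF170, the paired scaffold subunits on which the core is built. Smarcc1 (chromosome 9, 110117708 to 110240178, plus strand) had 1127, 1238 and 1101 normalized counts in IkWT/OP9-DL1 and 890, 543 and 705 in IkNull/OP9-DL1. Smarcc2 (chromosome 10, 128459248 to 128490482, plus strand) had 1946, 1723 and 1637 against 1439, 903 and 1114. Neither gene's groups overlapped. The log2 fold change was -0.72 ± 0.18 for Smarcc1 (adjusted p = 0.0219) and -0.64 ± 0.18 for Smarcc2 (adjusted p = 0.0328).

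Smarcb1 encodes SNF5, the core subunit that docks on the nucleosome face (chromosome 10, 75896769 to 75921617, minus strand). It had 604, 607 and 584 normalized counts in IkWT/OP9-DL1 and 593, 305 and 416 in IkNull/OP9-DL1. Replicate 1 of IkNull reached the IkWT range while the other two did not. The log2 fold change was -0.50, with a 95% interval from -1.01 to 0.01, and did not pass (adjusted p = 0.150).

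The motor gene Smarca4 (chromosome 9, 21616169 to 21704230, plus strand) did not pass either. Its 3 values were 2048, 2085 and 1995 normalized counts in IkWT/OP9-DL1 and 2044, 1315 and 1421 in IkNull/OP9-DL1. As with Smarcb1, replicate 1 of IkNull lay within the IkWT range and the others below it. The log2 fold change was -0.39, with a 95% interval from -0.78 to 0.01 (adjusted p = 0.156).

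Smarca2 (chromosome 19, 26605050 to 26778322, plus strand) was the member with a positive log2 fold change, at 0.32 (interval -0.44 to 1.08; adjusted p = 0.543). Its counts were low, at 70.1, 93.1 and 50.2 in IkWT/OP9-DL1 and 68.8, 92.1 and 101.7 in IkNull/OP9-DL1, and the groups overlapped.

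The 3 ARID genes gave unlike values, and none passed. Arid1a (chromosome 4, 133679008 to 133756769, minus strand), which encodes the DNA-binding subunit BAF250a, had 2239, 1545 and 1425 normalized counts in IkWT/OP9-DL1 and 1840, 1590 and 1590 in IkNull/OP9-DL1. Its log2 fold change was -0.03, with an interval from -0.44 to 0.38. Arid1b (chromosome 17, 4994332 to 5347656, plus strand), the alternative to Arid1a, had 970, 641 and 761 against 531, 444 and 644. The intervals for Arid1b (-1.03 to -0.06) and for the PBAF subunit Arid2 (-0.87 to -0.08) lay below 0, but the adjusted p-values were 0.107 and 0.0872. Arid2 (chromosome 15, 96287518 to 96404992, plus strand) had 2236, 1593 and 1628 against 1355, 1209 and 1311, with no overlap. In all, 5 of the 10 genes had every IkNull library below every IkWT library, against 16.9% of all genes.

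**Figure D2:**
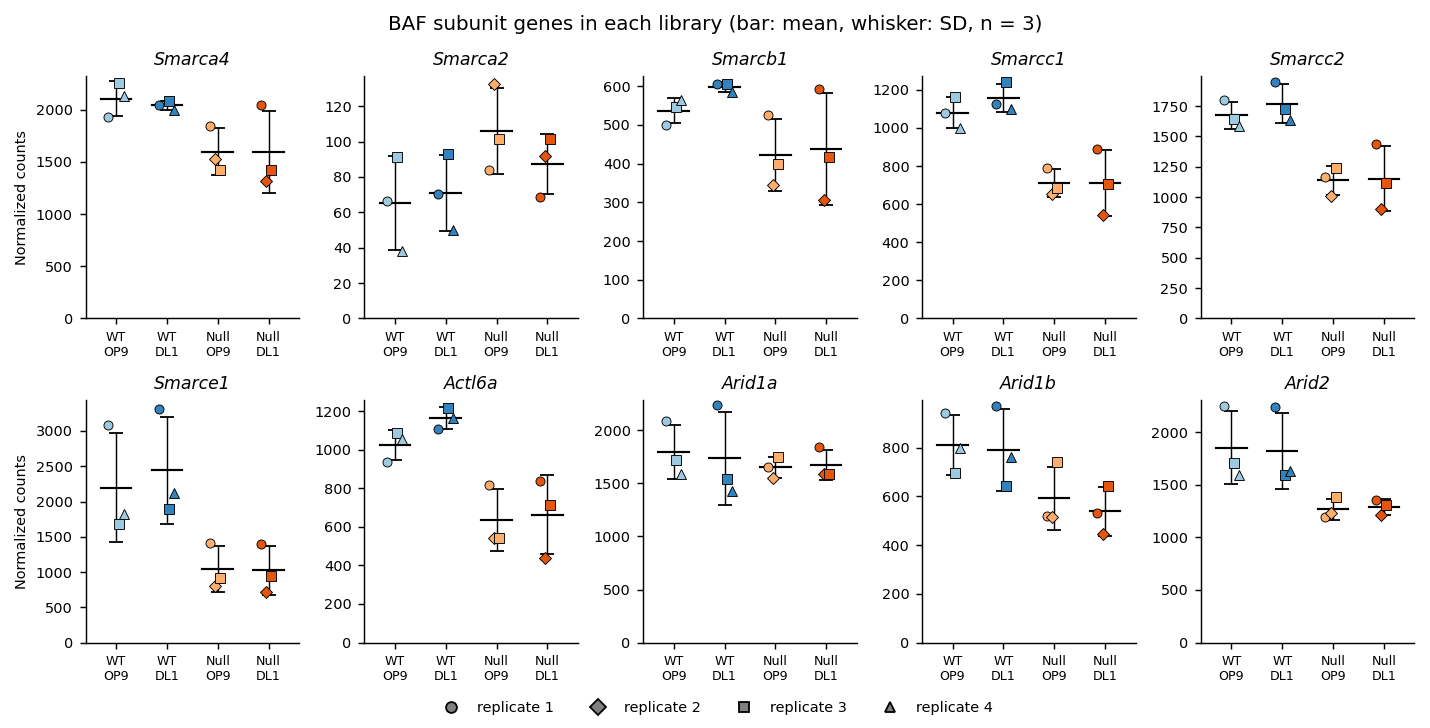
Normalized counts (y axes, from 0) of the 10 genes in each of 12 libraries, by group (x axis) with the replicate number as the marker. Black bars are means of 3 libraries and whiskers the SD. For Smarce1, Actl6a, Smarcc1, Smarcc2 and Arid2 all IkNull points lie below all IkWT points on each stroma.

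On OP9, where the comparison of IkNull with IkWT asked about IKAROS without added NOTCH ligand, no member was called by either threshold, against 2.83% of all genes called lower and 9.51% called in either direction. At an adjusted p under 0.05 alone, 3.78% of all genes were lower and 7% higher. At an unadjusted p under 0.05 there were 6 members, all lower, against 28.9% of all genes in either direction. edgeR and DESeq2 on the recovered reads of 10 libraries called none as well. The log2 fold changes were of a size with those on OP9-DL1, and their median was -0.50 against 0.00 for all genes.

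Smarce1 had 3085, 1686 and 1825 normalized counts in IkWT/OP9 and 1408, 801 and 912 in IkNull/OP9. Actl6a had 939, 1084 and 1053 against 819, 541 and 541. For both genes the groups did not overlap, and the log2 fold changes of -1.07 ± 0.33 and -0.72 ± 0.24 had adjusted p-values of 0.0600 and 0.0743. Smarcc1 had 1077, 1162 and 999 against 792, 653 and 684 (log2 fold change -0.61 ± 0.18; adjusted p = 0.0552). Smarcc2 had 1801, 1641 and 1585 against 1168, 1009 and 1238 (-0.56 ± 0.18; adjusted p = 0.0674). Neither pair of groups overlapped.

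Smarca4 on OP9 had 1933, 2257 and 2134 normalized counts in IkWT and 1848, 1529 and 1419 in IkNull, which did not overlap, with a log2 fold change of -0.41 (interval -0.80 to -0.01; adjusted p = 0.166). Smarcb1 had 500, 546 and 564 against 525, 344 and 399 and did overlap. Smarca2 had 66.1, 91.1 and 38.1 against 84.0, 132 and 101 (log2 fold change 0.76, interval -0.01 to 1.52; adjusted p = 0.176). Of the 3 ARID genes, only Arid2 had groups without overlap, at 2253, 1711 and 1598 against 1190, 1231 and 1380 (adjusted p = 0.0769). The values of Arid1a were 2083, 1716 and 1587 against 1651, 1554 and 1747, and those of Arid1b 942, 695 and 797 against 521, 516 and 743. In all, 6 members had all IkNull libraries below all IkWT libraries, against 16.7% of genes tested.

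A call on OP9-DL1 beside none on OP9 is not a difference between the stromas. The interaction of genotype and stroma was called for none of the 10 genes and for 0% of all genes (at an unadjusted p under 0.05, 0 members and 59 genes or 0.428%), and edgeR and DESeq2 called none. That limma fit leaves out the culture, which libraries of the same genotype and replicate number share. With the culture as a block, limma called 0 genes as well, but 1213 of 13769 genes had an unadjusted p under 0.05. The interaction term was -0.20 for Smarce1 (interval -1.22 to 0.82) and -0.14 for Actl6a (interval -0.88 to 0.60), with intervals from the fit without the block.

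Because the libraries of a replicate number on both stromas behaved as the same culture, the genotypes were also compared over the means of each culture, 3 against 3. No member was called (2.69% of all genes were called lower and 9.38% in either direction), and 5 had an unadjusted p under 0.05, against 30.4% of all genes. The adjusted p was 0.0518 for Smarce1 (log2 fold change -1.17), 0.0646 for Actl6a (-0.79), 0.0651 for Smarcc1 (-0.66) and 0.0786 for Smarcc2 (-0.60). Over both stromas, 5 genes (Actl6a, Arid2, Smarcc1, Smarcc2 and Smarce1) had all 6 IkNull libraries below all 6 IkWT libraries, against 10.3% of all genes.

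The calls on OP9-DL1 depended on single libraries. Without IkNull/OP9-DL1 replicate 1, the count rose from 2 to 4, with Smarcc1 and Smarcc2 added. Leaving out IkNull/OP9-DL1 replicate 2 or 3, or IkWT/OP9-DL1 replicate 1 or 4, left 0, and without IkWT/OP9-DL1 replicate 3 Smarce1 alone was called. The direction did not turn for Smarce1, Actl6a, Smarcc1 or Smarcc2 in any of the 30 alternatives, which for Smarce1 ranged from -1.56 to -1.03. Genes called lower over the whole table moved too, from 640 to 1161 without IkNull/OP9-DL1 replicate 1 and to 226 without replicate 2.

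Scaling changed the level of the whole table. With library totals made equal, the median of all genes on OP9-DL1 went from 0.03 to -0.26 and 1589 of 2308 called genes were lower, against 640 of 1935 before. Under that scaling 5 members were called lower on OP9-DL1 (Actl6a, Arid1b, Smarcc1, Smarcc2 and Smarce1), and the median of the 10 was -0.82. In both scalings, and with TMM, 9 of the 10 genes lay below the median of all genes.

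**Figure D3:**
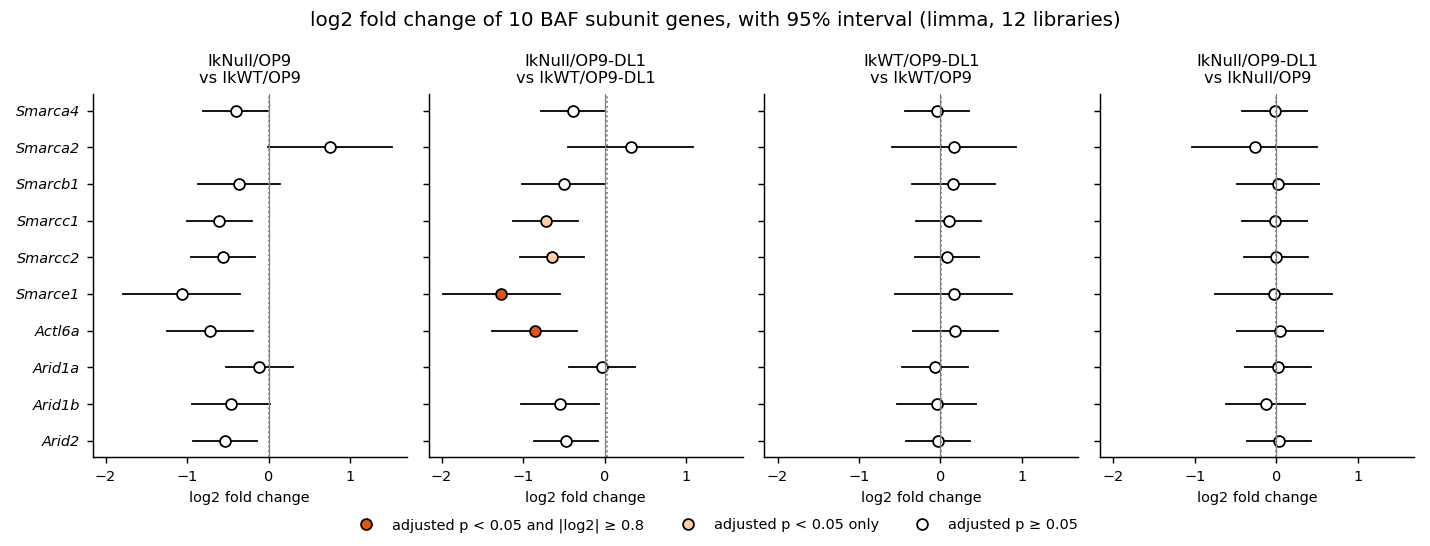
log2 fold change (x axis) of the 10 genes (y axis) with its 95% interval in 4 comparisons, from limma on 12 libraries. Dark points passed the thresholds of adjusted p and size, pale points passed adjusted p alone, white points passed neither, and the dotted line is the median of all genes. Dark points are Smarce1 (-1.27) and Actl6a (-0.86) on OP9-DL1, and intervals of the stroma comparisons all include 0. The fit had no block for the culture, so these intervals hold the spread between cultures.

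The stroma comparison, which asked what NOTCH stimulation by OP9-DL1 changed, gave no call for any member in either genotype. Of all genes, 0.00726% were called in IkWT and 0.0145% in IkNull, and no member had an unadjusted p under 0.05, against 1.39% of all genes in IkWT and 1.58% in IkNull. These shares are from the limma fit that leaves out the culture shared by both stromas. edgeR and DESeq2 also called no member. With the culture as a block, limma called no member either, but it called 202 of 13769 genes in IkWT and 101 in IkNull. In that fit 2049 genes in IkWT and 1963 in IkNull had an unadjusted p under 0.05, and the members under it were not counted. Over 29 alternatives (limma, edgeR or DESeq2), that fit included, the lowest adjusted p of a member was 0.252 in IkWT (Smarce1). In IkNull it was 0.474 (Arid1b). The largest log2 fold changes were 0.18 for Actl6a in IkWT (interval -0.34 to 0.71) and -0.27 for Smarca2 in IkNull (interval -1.03 to 0.50). Smarca4 was at -0.04 in IkWT (interval -0.44 to 0.35) and -0.02 in IkNull (interval -0.42 to 0.37). All these intervals are from the fit without the culture as a block. They hold the spread between cultures and so are not intervals of the differences within cultures.

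Within IkWT cultures, 6 of the 10 genes were higher on OP9-DL1 in all 3 (Smarca2, Smarcb1, Smarcc1, Smarcc2, Smarce1 and Actl6a), against 22.7% of all genes. For Actl6a the log2 differences were 0.24, 0.17 and 0.15 in replicates 1, 3 and 4. In IkNull cultures no member was higher in all 3, against 15.4% of all genes, and Actl6a gave 0.03, -0.30 and 0.40 in replicates 1, 2 and 3. Libraries of Actl6a and Smarcb1 in IkWT did not overlap between stromas, 2 of 10 genes against 3.67% of all genes.

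The ratio of related subunit genes was followed within each culture as the mean log2 ratio over both stromas. BRG1 and BRM, and ARID1A and ARID1B, are alternatives. SMARCC1 and SMARCC2 are instead the paired scaffold subunits, and Arid1a/Arid2 sets a canonical BAF subunit against one of PBAF. The 4 pairs were Smarca4/Smarca2, Arid1a/Arid1b, Smarcc1/Smarcc2 and Arid1a/Arid2, and only differences in the ratio are read, since its level carries the lengths of the genes. The Arid1a/Arid2 log2 ratio was -0.06, -0.02 and -0.10 in IkWT replicates 1, 3 and 4 and 0.46, 0.37 and 0.31 in IkNull replicates 1, 2 and 3. The genotypes did not overlap, and the difference of 0.44 had a two-sided exact permutation p of 0.1, the smallest that 3 against 3 can give (adjusted over 4 pairs 0.267). This test could therefore not reach 0.05.

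The Smarca4/Smarca2 log2 ratio was 4.85, 4.54 and 5.53 in IkWT and 4.66, 3.67 and 3.79 in IkNull cultures. Replicate 1 of IkNull lay within the IkWT range, and the difference of -0.93 had an exact permutation p of 0.2. Arid1a/Arid1b was 1.18, 1.29 and 0.95 against 1.73, 1.71 and 1.27, a difference of 0.43 with an exact permutation p of 0.2. For Smarcc1/Smarcc2 the difference was -0.06 and the exact permutation p 0.6, with IkWT values of -0.76, -0.49 and -0.62 and IkNull values of -0.63, -0.68 and -0.76. After adjustment over the 4 pairs, these p-values were 0.267, 0.267 and 0.6. Between stromas, the ratios of the 4 pairs differed by 0.02 ± 0.33, 0.06 ± 0.12, 0.00 ± 0.12 and -0.02 ± 0.10 (SD, n = 6 cultures) in the order above, with exact sign-flip p-values of 1.0, 0.25, 0.938 and 0.594 and adjusted p-values of 1.0 for each.

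**Figure D4:**
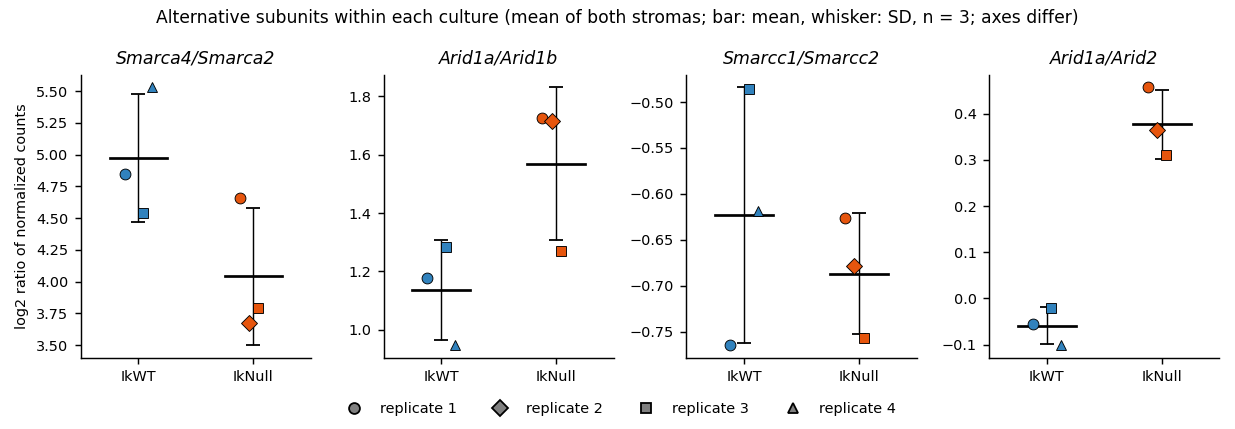
log2 ratio of normalized counts of paired subunits (y axes, which differ) in each culture by genotype (x axis), with the replicate number as the marker, black bars for the mean of 3 cultures and whiskers for the SD. The Arid1a/Arid2 points are -0.10 to -0.02 in IkWT and 0.31 to 0.46 in IkNull, and the other 3 pairs overlap.

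The 10 genes did not vary as a single block. Over the 12 libraries the highest Pearson correlations of log2 values were 0.97 for Smarcc1 with Actl6a, 0.96 for Smarcc1 with Smarcc2 and 0.94 for Smarcb1 with Actl6a. After the group means were removed these were 0.89, 0.80 and 0.94, so that they were also present among libraries of the same group. Arid1a had a median correlation of 0.26 with the other members and Smarca2 one of -0.57. These are descriptions, since the points share cultures in pairs and size factors.

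For Smarca4, the genes most like it among 9961 genes with a mean of at least 50 were Ints1, a subunit of the Integrator complex (r = 0.99 over 12 libraries), Ubap2 (r = 0.98) and Raver1, an RNA-binding protein gene (r = 0.97). The gene next in this order was nearly level with Raver1 (r = 0.97). The libraries share cultures in pairs and differ in genotype, so these values only describe them and do not set these genes apart.

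Among the other subunit genes, the largest difference was in Actl6b, which encodes BAF53b, the paralog of ACTL6A found in the BAF complex of neurons. No read was counted in any of the 6 IkWT libraries, whereas IkNull/OP9 libraries had 30.9, 45.4 and 14.1 normalized counts and IkNull/OP9-DL1 libraries 41.5, 42.3 and 15.1. In the 4 IkNull libraries with recovered totals these were 25, 36, 32 and 28 reads. The floor that a count of 0 allows was taken as 3 reads per library. This was 2.53 normalized counts on average in IkWT/OP9 and 2.43 in IkWT/OP9-DL1. The IkNull means were 11.9 times this floor on OP9 and 13.6 times on OP9-DL1. The floor covers counting error only. These ratios leave out the spread of the IkNull libraries and so are not lower bounds. It passed the filter on the mean through the IkNull libraries alone and dropped out at a minimum mean of 20, so no p-value is given for it and it is not counted as a call. Genes called higher were 6.69% of all on OP9, 9.41% on OP9-DL1 and 6.69% over culture means.

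Per kilobase of exon, Actl6b made up 4.24 ± 2.52% of Actl6a and Actl6b together in IkNull/OP9 and 4.76 ± 3.11% in IkNull/OP9-DL1 (SD, n = 3), with 1.89% the lowest and 8.06% the highest. Actl6b (chromosome 5, 137553517 to 137569582, plus strand) has no exon overlapping another gene. Its downstream neighbour Tfr2, an erythroid transferrin receptor gene that starts at 137569840 on the same strand, had 989 to 1314 normalized counts in IkWT and 762 to 1369 in IkNull libraries. The neighbour was looked up after the values of Actl6b were seen.

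Of the 17 other subunit genes tested, 3 were called lower and 1 higher (Gltscr1) on OP9-DL1, with Actl6b not counted. Of all genes, 4.65% were called lower, 9.41% higher and 14.1% in either direction. These calls depended on the setting. Over 30 alternatives (limma, edgeR or DESeq2), the highest adjusted p was 0.0758 for Brd9, 0.172 for Phf10, 0.151 for Smarcd1 and 0.194 for Gltscr1. Smarcd3 and Dpf1 did not pass the filter. Brd9, the bromodomain subunit of ncBAF, had 651, 603 and 594 normalized counts in IkWT/OP9-DL1 and 433, 306 and 318 in IkNull/OP9-DL1 (log2 fold change -0.82 ± 0.18; adjusted p = 0.0138). Phf10, a PHD finger subunit of PBAF, had 4402, 3654 and 3385 against 2806, 1079 and 1736 (-1.12 ± 0.32; adjusted p = 0.0359), with 9.56% of its exon length shared with 1600012H06Rik on the opposite strand. Smarcd1, a BAF60 subunit that links the core to transcription factors, had 142, 171 and 197 against 92.1, 83.0 and 113 (-0.82 ± 0.22; adjusted p = 0.0278). Gltscr1, which encodes the ncBAF subunit BICRA, was higher, at 857, 318 and 492 in IkWT/OP9-DL1 and 1178, 1319 and 909 in IkNull/OP9-DL1 (1.13 ± 0.34; adjusted p = 0.0415).

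The genes Gltscr1l (BICRAL, the alternative to BICRA), Smarcd2 (a BAF60 subunit) and Brd7 (a PBAF bromodomain subunit) were lower on OP9-DL1. Their adjusted p-values (limma) were 0.0388, 0.0478 and 0.0480 and their log2 fold changes -0.65, -0.59 and -0.55. That made 6 of the 17 lower at an adjusted p under 0.05, against 7.25% of all genes. All IkNull libraries were below all IkWT libraries for those 6 genes and for no other of the 17, against 16.9% of all genes, but both counts come from the same libraries. On OP9, Brd9 was lower (-0.74 ± 0.18, adjusted p = 0.0278, limma) and Dpf3, a PHD finger subunit, was higher (0.71 ± 0.20, adjusted p = 0.0454, limma). Both were under the size threshold. That made 1 of 17 in each direction, with Actl6b not counted, against 3.78% of all genes lower and 7% higher. Actb, the actin subunit, was at -0.08 on OP9 and 0.06 on OP9-DL1 and did not pass. The median of the 17, Actl6b included, was -0.34 on OP9 and -0.40 on OP9-DL1. In the stroma comparisons and the interaction none of the 17 was called, with Dpf3 in IkWT at an unadjusted p of 0.0492.

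**Figure D5:**
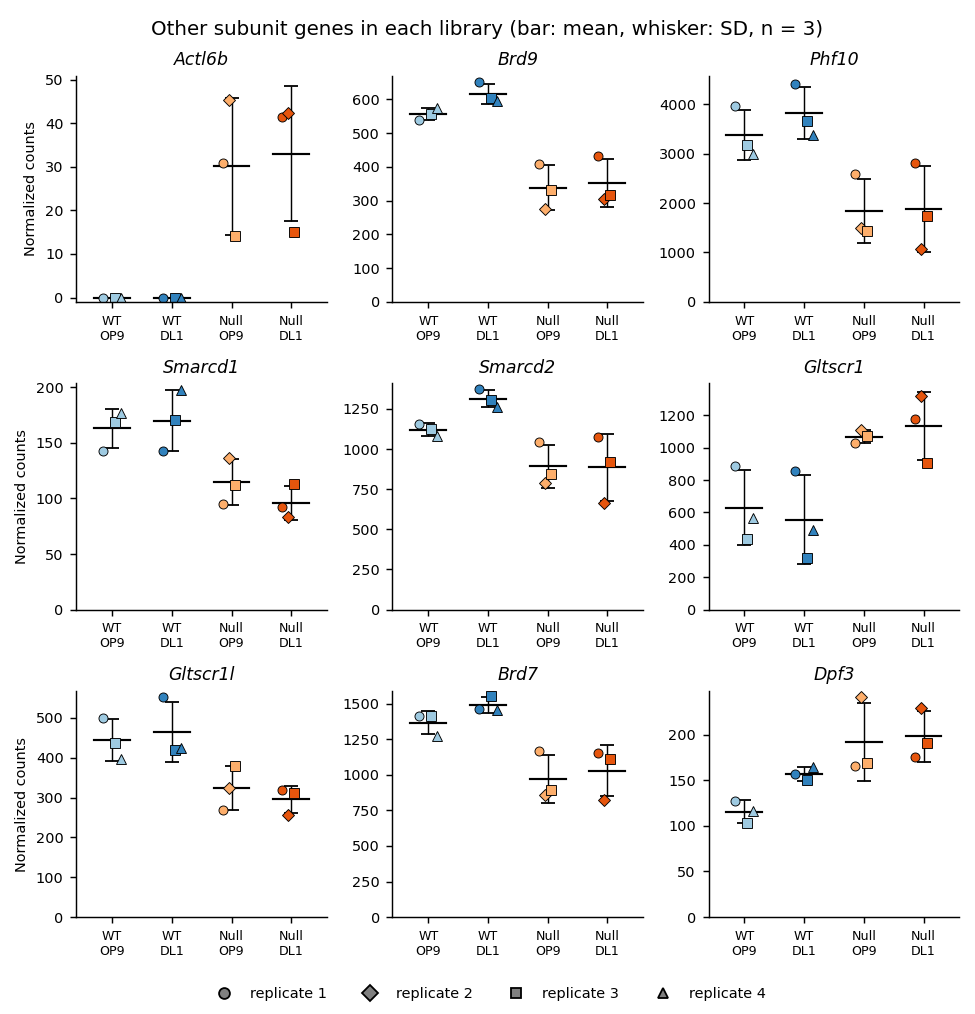
Normalized counts (y axes) of 9 other subunit genes in each of 12 libraries, by group (x axis) with the replicate number as the marker, bars for the mean of 3 libraries and whiskers for the SD. Actl6b points are at 0 in all 6 IkWT libraries and at 14.1 to 45.4 in IkNull.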

How the data were processed

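Poly-A RNA libraries had been sequenced by the authors on a HiSeq2000, aligned with TopHat to the mm10 build (GRCm38) and counted over genes by htseq-count. Versions in the submitters' processing notes are DESeq2 1.0.19, HTSeq 0.5.3, TopHat2 2.0.9 and CASAVA 1.8. The deposited signal values are these counts divided by a DESeq size factor. The strand setting of the counting is not given in the sources used here, nor is the release of the annotation. The study describes a Ter119 sort, while the labels describe passage through a filter. Tables of the authors' own comparisons (group means, fold changes, p-values) were not used.

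log2(normalized count + 1) was fitted with limma 3.58.1 in R 4.3.3 (all 12 libraries, 4 group means, eBayes with trend) for the 13769 genes whose mean reached 5. The p-values were adjusted by Benjamini-Hochberg over all of them. Fold changes are on this scale, which understates those of low genes. edgeR 4.0.16 and DESeq2 1.42.0 were run on reads recovered from 10 libraries, where 100% of values gave whole reads (tolerance 0.01). The 2 libraries of IkNull replicate 3 were left out there, as their steps lie near 1. Other settings were pseudocounts 0.5 and 5, no filter, a minimum mean of 20, TMM, equal totals, no trend, robust moderation, blocks, and each library or culture left out.

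Replicate numbers were checked on deviations from group means. In each genotype, same-numbered libraries correlated at 0.58 to 0.83 across genes and those of different numbers at -0.70 to 0.20, and the same number was taken as a shared culture. The study calls the libraries of a group biological replicates. Whether each culture came from a separate embryo is not given in the sources used here, so p-values measure the spread between these samples. Positions are from GENCODE vM21, which held 36429 of the 38250 genes.

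Named genes were all 10 members, any of the 19 other subunit genes with an adjusted p under 0.05, and the 3 genes most correlated with Smarca4. Members and lists were chosen with earlier results of these data known.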

Additional observations from a re-analysis of the deposited data

How the results depend on the processing

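The count of members called on OP9-DL1 was 2 and became 0 with edgeR on recovered reads, which lacks both libraries of IkNull replicate 3, 5 with equal totals and 1 with the replicate block on the shared numbers 1 and 3. DESeq2, which lacks the same libraries as edgeR, kept Smarce1 and Actl6a. TMM, the pseudocounts, the filters, the moderation settings and culture as a random block kept these 2 genes too. On OP9 the count of 0 became 1 (Smarce1) with equal totals, with culture as a random block and with the replicate block on number. Over culture means the count of 0 became 1 with TMM, 2 with equal totals and 1 with the replicate block on number. edgeR on OP9-DL1 gave 6 members and 3953 of 13769 genes with an unadjusted p under 0.05. The cause of these changes was not tested. Across genotypes on the same stroma, libraries of equal number correlated at 0.20 to 0.48 and others at -0.43 to 0.23, in 2 shared numbers. Equal numbers across genotypes were treated as paired only in the setting with the replicate block on number.

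Leaving out single libraries or cultures gave 0 to 4 calls on OP9-DL1, 0 to 2 on OP9 and 0 to 2 over culture means. The count of 2 on OP9 was without IkNull replicate 1 or its OP9 library alone, and that over culture means without IkNull replicate 1. Without that culture, Smarca4 had an adjusted p under 0.05 on both stromas, with a change under the size threshold. Counts at an adjusted p under 0.05 alone ranged from 0 to 6 on OP9-DL1, where the full set gave 4. In both stroma comparisons and in the interaction, 0 members were called in every setting, the replicate block on culture included. No called value turned its direction. The log2 ratio differences ranged from -1.24 to -0.66 for Smarca4/Smarca2, from 0.34 to 0.58 for Arid1a/Arid1b, from -0.13 to 0.00 for Smarcc1/Smarcc2 and from 0.40 to 0.47 for Arid1a/Arid2 with a culture left out, and the pseudocount moved none of them past the spread between cultures. Smarca2 and Actl6b were counted on few reads, which limits the precision of their values.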
